A study of Mus musculus with 2 samples.

Results

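The selenoprotein genes Selenow, Selenom, Selenok, Selenot, Selenop, Selenof, Gpx1, Gpx4, Txnrd1 and Msrb1 were described in left cerebral cortex of young mice by long-read RNA sequencing, an assay that reads transcripts at or near their full length. These 10 genes were taken by name from the deposited tables of transcript models, with all reads that the tables assign to them. They are 10 of 18366 annotated mouse genes with at least 1 read, and all of them had reads in both libraries. GENCODE M21 annotates a selenocysteine codon in 24 mouse genes, and each of the 10 is among them.

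The series holds 1 group: left cerebral cortex of B6CASTF1/J males, 14 days old. Its 2 biological replicates are 1 library each, and 2 µg of total RNA went into each library. B6CASTF1/J is a first-generation cross of C57BL/6J with the wild-derived CAST/EiJ strain, and no treatment or mutant allele is named. Both samples carry 1 donor identifier and their descriptions mention several males, so whether they came from separate animals or from pools is not settled in the sources used here. With 1 group, the data answer which selenoprotein transcripts were present and at what level, and every test below compares the libraries, not conditions, against counting error alone.

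Selenoproteins carry selenocysteine, a relative of cysteine with selenium in place of sulfur, usually in the active site of an enzyme that handles oxidants. The codon for it is UGA, which elsewhere ends translation. A hairpin in the 3′ untranslated region (the SECIS element), its binding protein SECISBP2 and a dedicated elongation factor make the ribosome insert selenocysteine there. The brain keeps selenium when other organs run short, through uptake of selenoprotein P, the secreted selenium carrier that Selenop encodes, by the receptor LRP8.

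The stretch around the selenocysteine codon is shown for each gene because it is the feature that the 10 share and that would mark the end of the protein in any other mRNA. Each is read from the GENCODE M21 transcript that held most annotated reads of the gene, on the strand of the mRNA, with the codon in capitals as TGA and the bases of neighbouring codons in lower case. For Selenop, the first of its codons is shown.
Selenow: tattgtggagctTGAggctataagcccaag
Selenop: cttcaagccagcTGAtacttgtgtcttctg
Selenok: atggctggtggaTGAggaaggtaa
Gpx4: gtggcctcgcaaTGAggcaaaactgacgta
Selenof: gaagtctgcggaTGAaaattggggaggttc
Selenom: acctgtggaggaTGAcagttgaatcgccta
Txnrd1: cagtctggctgcTGAggttaa
Gpx1: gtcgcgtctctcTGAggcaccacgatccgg
Selenot: atttgtgtatccTGAgggtaccggcgggtg
Msrb1: caatcaagattcTGAatatttagcagctca

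In the transcripts that led these genes, the codon lay at very different places. In Selenow it was codon 13 of 88, in exon 2 of 6 (chr7:15920464-15920466 on mm10, minus strand), and the coding sequence also ended in TGA, which made Selenow the 1 gene of the 10 with the same triplet for selenocysteine and for the stop. Of the others, 5 ended in TAA and 4 in TAG. In Gpx1 it was codon 47 of 201 in the first of 2 exons, and in Gpx4 codon 73 of 197 in exon 3 of 7. Selenom held it at codon 48 of 145, Selenot at codon 49 of 195, Selenof at codon 93 of 162 and Msrb1 at codon 95 of 116. In Selenok and Txnrd1 the codon was the last or nearly the last of the protein, at codon 92 of 94 (chr14:29973440-29973442) and codon 498 of 499 (chr10:82896037-82896039). The base right after the codon was G in 6 genes, A in 2, C in 1 and T in 1.

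On mm10 with GENCODE M21, Selenow lies on the minus strand of chromosome 7 (15917208 to 15922402) and the other 9 genes on plus strands. Selenop spans 3268547 to 3280508 on chromosome 15, Selenok 29968308 to 29975662 on chromosome 14, and Selenom 3514684 to 3517351 on chromosome 11. Gpx4 (80047166 to 80056439) and Txnrd1 (82833951 to 82897712) share chromosome 10, and Selenot (58576636 to 58593133) and Selenof (144570304 to 144597680) share chromosome 3. Gpx1 spans 108338903 to 108340343 on chromosome 9 and Msrb1 24736642 to 24742778 on chromosome 17. Txnrd1 overlaps Eid3 on its own strand, where the count per gene depends on how the authors assigned each model.

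Selenop stood apart with 10 selenocysteine codons, the first at codon 59 of 380 in exon 2 of 5 (chr15:3274848-3274850) and the other 9 in the last exon. The end of its coding sequence, from codon 282 to codon 381, the stop, is shown because 7 of the 10 codons, in capitals, fall within these 300 bases of chromosome 15.
Selenop end of coding sequence: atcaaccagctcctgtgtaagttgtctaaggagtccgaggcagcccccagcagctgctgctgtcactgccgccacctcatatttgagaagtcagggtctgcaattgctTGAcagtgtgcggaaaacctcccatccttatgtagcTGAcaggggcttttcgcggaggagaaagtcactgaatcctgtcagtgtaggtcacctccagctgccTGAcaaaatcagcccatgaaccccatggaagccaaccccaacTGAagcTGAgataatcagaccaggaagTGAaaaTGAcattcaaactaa

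A stop codon more than about 55 bases upstream of the last exon junction commonly marks an mRNA for nonsense-mediated decay, and a selenocysteine codon that is not decoded is such a stop. By that distance, 8 of the 10 leading transcripts carried their first codon far enough upstream, from 66 bases in Msrb1 and 78 in Selenof to 342 in Gpx4, 357 in Selenop and 470 in Selenot. Selenok held it 5 bases before the last junction and Txnrd1 in the last exon, 63 bases after the last junction. Msrb1-202 led on only 4 and 9 reads, and in the other annotated transcript, Msrb1-201, the codon lies 34 bases before the last junction, short of that distance. The position is a property of the annotated transcripts, and decay was not measured here.

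**Figure D1:**
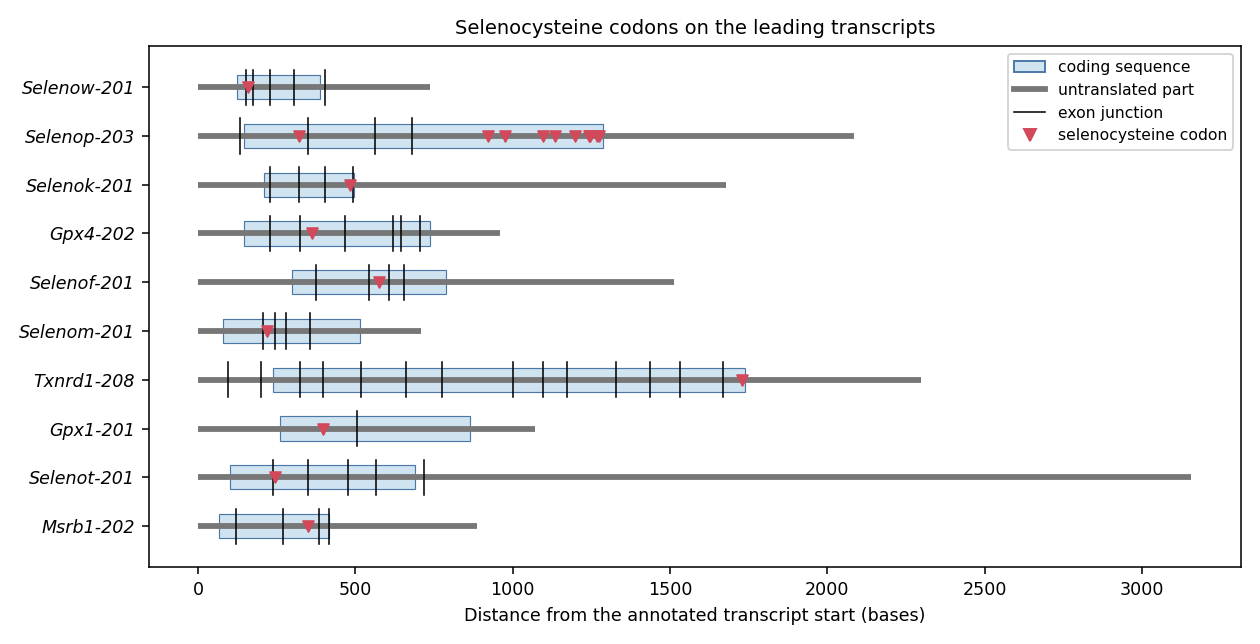
The annotated transcript that led each gene is drawn to scale in bases from its start, with the coding sequence as a box, exon junctions as vertical lines and selenocysteine codons as triangles. Selenow-201 has the codon near the start of a coding sequence of 88 codons, Txnrd1-208 and Selenok-201 near the end, and Selenop-203 carries 10 codons.

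The libraries held 782521 reads in replicate 1 and 935052 in replicate 2, of which 775048 and 924222 were mouse reads and the rest spike-ins. Levels are given in CPM, the usual scaling of the reads of a gene to the mouse reads of its library, and since 1 read stands for 1 transcript the values are not divided by length. A count of 0 allows a level of up to 3.87 CPM in replicate 1 and 3.25 CPM in replicate 2 (3 counts, counting error only, as for all intervals below). The labelled tissue showed its markers, with Slc17a7, the vesicular glutamate transporter of cortical excitatory neurons, at 1368 and 1316 CPM. The liver genes Alb and Apoa1 and the cerebellar genes Cbln3 and Gabra6 had no read in either library. A further cerebellar gene on the list, Pcp2, had 3 reads in replicate 1 and 2 in replicate 2. The libraries differed in striatal markers, which summed to 906 CPM in replicate 1 and 220 CPM in replicate 2, in red blood cell markers, at 276 and 532 CPM, in oligodendrocyte markers, at 3045 and 2000 CPM, and in choroid plexus markers, at 38.7 and 252 CPM, nearly all of it Ttr with 28 and 228 reads. In bulk tissue, fewer cells of a type and less RNA per cell cannot be told apart.

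The selenoprotein genes spanned a 127-fold range of mean level. Selenow was by far the most abundant, with Selenop next, and Msrb1 the least. Msrb1 lay below Selenot with all models counted, and also with models of 1 read left out (7.45 against 22.4 CPM). Over models with an annotated chain of introns, Selenot (5.83 CPM) lay below Msrb1 (8.09 CPM). Summed over the 10 genes, 1747 reads in replicate 1 and 2593 in replicate 2 came from them, which was 81.7% and 84.6% of the reads of all 24 annotated selenoprotein genes. Selenow alone gave 34.7% and 42.3% of those reads.

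Selenow encodes a small cytosolic protein with a thioredoxin-like fold that is abundant in brain and muscle. It had 742 reads in replicate 1 and 1296 in replicate 2, or 957 and 1402 CPM (mean 1180 ± 315 CPM, SD, n = 2). This placed it at rank 56 of the 18366 genes by mean level. Both libraries lay above every other selenoprotein gene, and the spread between them was the widest of the 10 in CPM. Its reads exceeded those of Selenop 1.88-fold in replicate 1 and 2.77-fold in replicate 2.

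Selenop, the secreted carrier, had 394 and 468 reads, or 508 and 506 CPM (507 ± 1.40 CPM, SD, n = 2), and ranked 220. Its libraries lay closest together of the 10. The gene lies opposite the annotated gene Ccdc152, and 14 reads in replicate 1 and 1 in replicate 2 came from the other strand over its exons.

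Of the glutathione peroxidases, Gpx4 lay above Gpx1 in both libraries. Gpx4, which reduces lipid hydroperoxides in membranes and so guards against ferroptosis, had 170 and 234 reads, or 219 and 253 CPM (236 ± 23.9 CPM, SD, n = 2). Gpx1, which reduces hydrogen peroxide in the cytosol, had 38 and 40 reads, or 49.0 and 43.3 CPM (46.2 ± 4.07 CPM, SD, n = 2). The processed copy Gpx4-ps2 was listed with 6 and 12 reads, and how reads were divided between it and Gpx4 is not given in the sources used here.

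Txnrd1, the cytosolic reductase that returns thioredoxin to its reduced form, had 59 and 88 reads, or 76.1 and 95.2 CPM (85.7 ± 13.5 CPM, SD, n = 2). Msrb1, which repairs oxidized methionine residues, had 6 and 10 reads, or 7.74 and 10.8 CPM (9.28 ± 2.18 CPM, SD, n = 2). Msrb1 lay above the level that a count of 0 allows in both libraries, and its isoforms rest on few reads.

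The genes for proteins of the endoplasmic reticulum ranged widely. Selenok, a membrane protein tied to the disposal of misfolded proteins and to protein palmitoylation, had 172 and 241 reads, or 222 and 261 CPM (241 ± 27.5 CPM, SD, n = 2). Selenof, a partner of the folding sensor UGGT1, had 73 and 112 reads, or 94.2 and 121 CPM (108 ± 19.1 CPM, SD, n = 2). Selenom, a thioredoxin-like protein of the lumen, had 73 and 83 reads, or 94.2 and 89.8 CPM (92.0 ± 3.10 CPM, SD, n = 2). Selenot, a thioredoxin-like membrane protein, had only 20 and 21 reads, or 25.8 and 22.7 CPM (24.3 ± 2.18 CPM, SD, n = 2). Selenok lay above Selenof and Selenom in both libraries, and Selenot below all of them.

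In order of mean level the genes ran Selenow, Selenop, Selenok, Gpx4, Selenof, Selenom, Txnrd1, Gpx1, Selenot and Msrb1. The libraries' ranges overlapped between the neighbours Selenok and Gpx4, Selenof and Selenom, and Selenom and Txnrd1, so these neighbours do not differ beyond their spread. The other neighbours did not overlap with all models counted, though Selenot and Msrb1 changed order with annotated chains only, as given above. Divided by the length of the leading transcript, Selenow stayed first at 1603 CPM per kilobase, Gpx4 came next at 246, ahead of Selenop at 243, while Selenot, whose leading annotated transcript is 3157 bases long, came last at 7.69 CPM per kilobase.

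**Figure D2:**
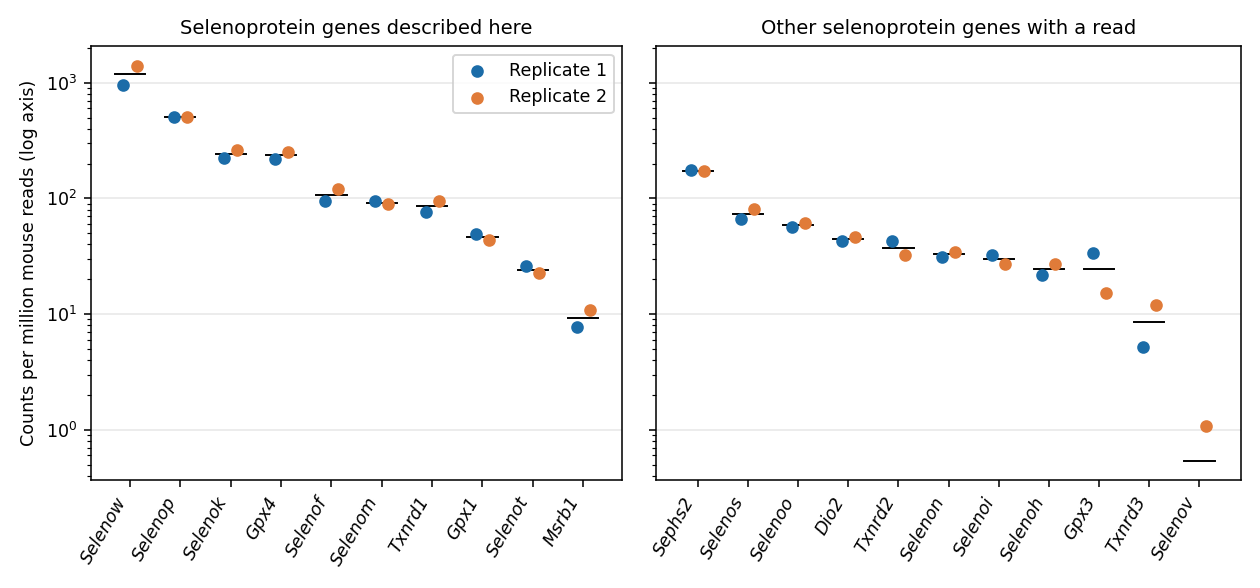
Each point is the level of a gene in 1 library, in CPM on a log axis, with the mean as a horizontal line, and the panels hold the 10 genes described and the other selenoprotein genes that had a read. Selenow lies at 957 and 1402 CPM and Msrb1 at 7.74 and 10.8 CPM, and Sephs2 leads the other selenoprotein genes at 174 and 173 CPM.

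Of the 14 other selenoprotein genes, 10 had reads in both libraries. The 11 with any read had a median level of 32.8 CPM, against 99.8 CPM for the 10 genes described. Sephs2, which makes the selenium donor for selenocysteine and is itself a selenoprotein, led them with 135 and 160 reads (174 ± 0.752 CPM, SD, n = 2). Below it came Selenos with 51 and 75 reads, Selenoo with 44 and 57, Dio2 with 33 and 43, Txnrd2 with 33 and 30, Selenoi with 25 and 25, Selenon with 24 and 32, Selenoh with 17 and 25, Gpx3 with 26 and 14, and Txnrd3 with 4 and 11. Selenov had 1 read, in replicate 2, and Dio1, Dio3 and Gpx2 had none. Dio2 is the deiodinase that activates thyroid hormone in the brain, and Dio3, which inactivates the hormone, was not detectable at this depth.

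The difference between the libraries was tested for each gene with Fisher's exact test (two-sided), its reads against all other mouse reads, with Benjamini-Hochberg adjustment over the 11203 genes that had at least 10 reads. At an adjusted p under 0.05, 1 of the 10 selenoprotein genes differed, against 2.11% of all genes tested (236 of 11203). That gene was Selenow, lower in replicate 1 with a log2 ratio of replicate 1 over replicate 2 of -0.55 (95% interval -0.68 to -0.42) and an adjusted p of 3.04e-14 by Fisher's exact test. Genes higher in replicate 2, as Selenow was, made up 1.10% of those tested, and genes higher in replicate 1 made up 1.01%.

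Selenow has a leading transcript of 736 bases, and genes with short transcripts as a whole lay lower in replicate 1. Among tested genes whose leading transcript was under 1000 bases, the median log2 ratio was -0.23 (927 genes, quartiles -0.56 and 0.10). It was 0.00 for those of 1000 to under 2000 bases (2328 genes) and 0.05 for those of 2000 bases or more (7259 genes). The ratio of Selenow, -0.55, lay between the quartiles of the short group. In these groups 55, 43 and 119 genes passed the test. Markers of excitatory neurons summed to 3571 CPM in replicate 1 and 5128 CPM in replicate 2, with 1 of 6, Nrgn, past the test. Without Nrgn the other 5 summed to 1630 and 1602 CPM. Red blood cell and choroid plexus markers were also lower in replicate 1, and striatal and oligodendrocyte markers higher, as given above. The part of length or cell makeup in the Selenow difference was not tested.

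The other 9 genes did not pass the test. Their log2 ratios of replicate 1 over replicate 2 were -0.44 for Msrb1 (95% interval -1.85 to 0.97), -0.36 for Selenof (-0.78 to 0.06), -0.32 for Txnrd1 (-0.79 to 0.16), -0.23 for Selenok (-0.51 to 0.05) and -0.21 for Gpx4 (-0.49 to 0.08). For Selenop the ratio was 0.01 (-0.19 to 0.20), for Selenom 0.07 (-0.38 to 0.52), for Gpx1 0.18 (-0.46 to 0.82) and for Selenot 0.19 (-0.69 to 1.06). Across the 10 genes the median log2 ratio was -0.22 and 6 of 10 lay below 0, while over all genes tested the median was 0.01 and 5431 of 11203 lay below 0. Without adjustment, 1 of the 10 genes and 1254 of all genes tested had a p under 0.05 by Fisher's exact test.

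**Figure D3:**
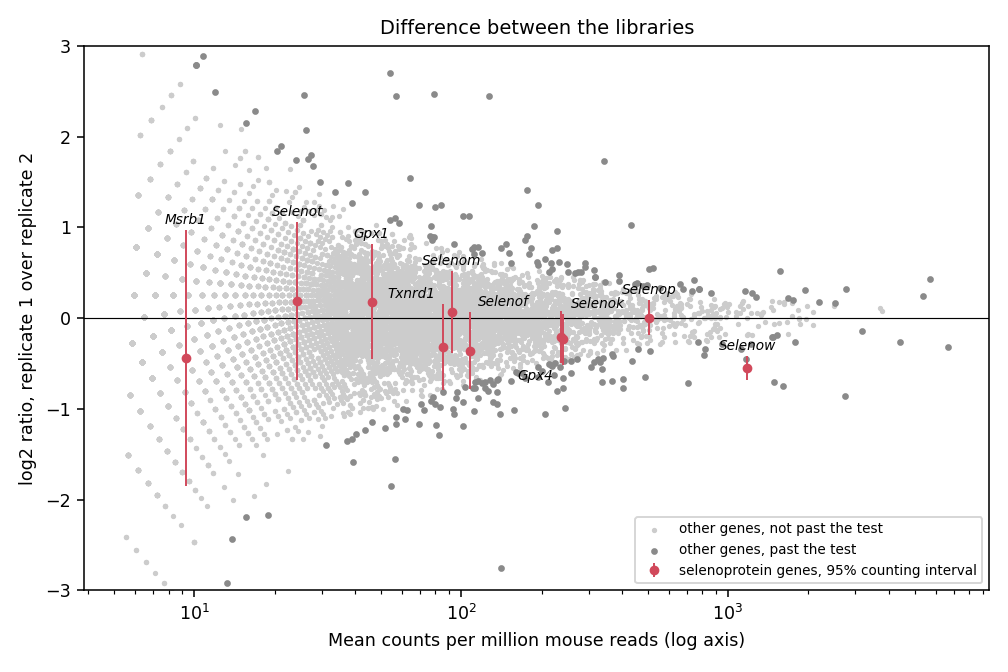
Each tested gene is placed by its mean level in CPM (log axis) and its log2 ratio of replicate 1 over replicate 2, with the selenoprotein genes in red and their 95% counting intervals as bars; 23 tested genes lie outside the vertical axis. Selenow at -0.55 is the selenoprotein gene whose interval lies farthest from 0, and the intervals of the other 9 include 0.

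Most selenoprotein reads matched annotated transcripts. A model is called Known when its chain of introns is annotated, ISM when it holds part of such a chain, NIC when it joins annotated splice sites in a combination that is not annotated, NNC when it uses a splice site that is not annotated, and genomic when it overlaps the gene without matching its splicing. Known models held 95.1% and 95.4% of the Selenow reads, 99.4% and 95.4% of the Selenok reads, 97.3% and 93.8% of the Selenof reads, and 94.1% and 95.7% of the Gpx4 reads. For Selenop the shares were 92.1% and 91.2%, for Selenom 90.4% and 90.4%, for Gpx1 100% and 95%, for Txnrd1 86.4% and 90.9% and for Msrb1 83.3% and 90.0%. Over the 3195 genes that had 50 or more reads in both libraries, the median Known share with the libraries pooled was 80.9% (quartiles 61.3% and 90.9%). Of the 10 genes, 9 lay above that median in both libraries and Selenot, at 20.0% and 28.6%, below the lower quartile. Gpx1, Selenot and Msrb1 had fewer reads than that minimum, and the 83.3% of Msrb1 is 5 of 6 reads (95% Wilson interval 43.6% to 97.0%).

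**Figure D4:**
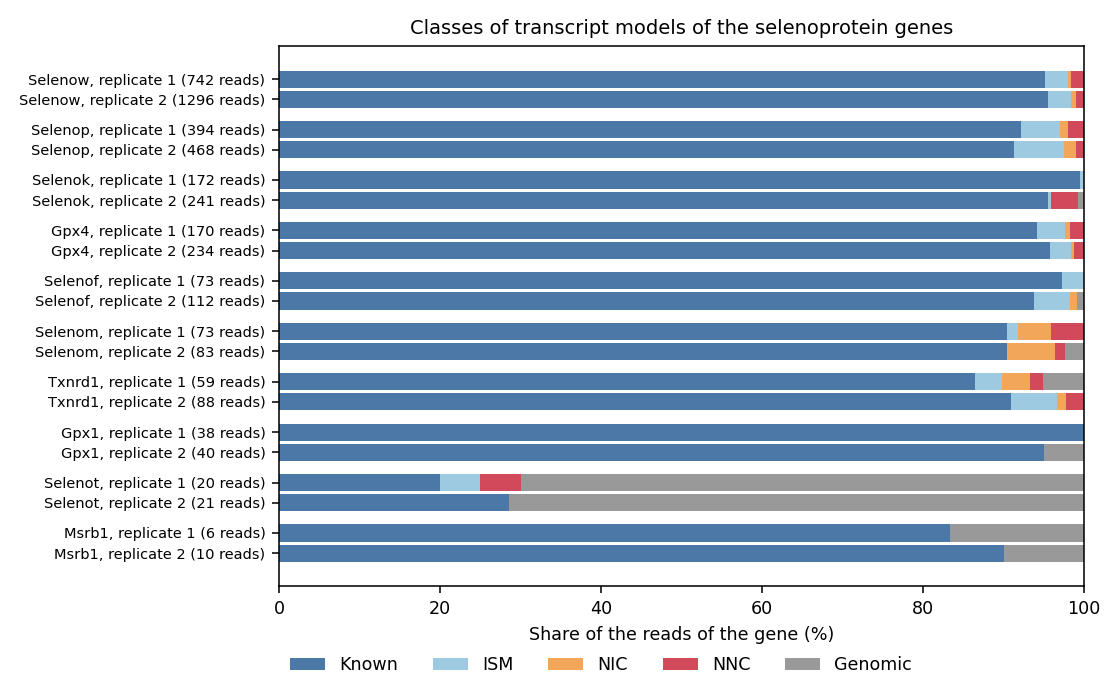
Horizontal bars split the reads of each gene in each library by the class of their transcript model, as percent of the reads of the gene. Known models fill at least 83.3% of every bar but those of Selenot, where genomic models hold 70.0% and 71.4%.

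A single annotated transcript led nearly every gene. Selenow-201 held 95.1% of the Selenow reads in replicate 1 (95% Wilson interval 93.4% to 96.5%) and 95.4% in replicate 2 (94.2% to 96.5%). Selenok-201 held 99.4% and 95.4%, Selenof-201 97.3% and 93.8%, Gpx1-201 100% and 92.5%, Gpx4-202 91.8% and 94.0%, Selenop-203 90.4% and 90.6%, and Selenom-201 89.0% and 89.2% of the reads of their genes. Msrb1-202 held 4 of 6 and 9 of 10 reads. The median over the 3195 genes was 74.4% for the leading isoform. No read matched Gpx4-201, the annotated form with the longer coding sequence of 253 codons, and Gpx4-207 had 4 reads in each library.

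Selenot was the exception. Of its reads, 14 of 20 in replicate 1 and 15 of 21 in replicate 2 came from single-exon models that lay wholly within the last exon of Selenot-201 (chr3:58590695-58593133) and reached its annotated end. These models spanned chr3:58591008-58593133 in replicate 1 and chr3:58591285-58593133 in replicate 2, downstream of the coding sequence. Spliced reads of Selenot-201 numbered 4 and 5. On the opposite strand over Selenot exons, 10 and 8 reads were listed. Model ends in the deposited files need not be the ends of single reads.

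Txnrd1 reads were assigned to more than 1 annotated start. Txnrd1-208, which begins at a first exon upstream of that of Txnrd1-206, held 74.6% and 68.2% of the reads. Txnrd1-206, with the downstream first exon, held 8.47% and 17.0% (5 and 15 reads). Both encode the same length, 499 codons. The first exon of Txnrd1-206 holds exon 2 of Txnrd1-208 and extends it upstream, so a read of Txnrd1-208 cut short within exon 2 cannot be told apart from this start by its introns. Over the spliced reads with a first junction of either kind, the downstream start was assigned to 5 of 54 in replicate 1 (9.26%, 95% Wilson interval 4.02% to 19.9%) and 17 of 85 in replicate 2 (20.0%, 12.9% to 29.7%). That difference did not pass Fisher's exact test (two-sided p = 0.101). Of reads from the upstream first exon, 2 in replicate 1 and 6 in replicate 2 skipped exon 2, an untranslated exon of 107 bases, as annotated in Txnrd1-201.

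The window before the upstream start of Txnrd1 (chr10:82858956-82859255, plus strand, RefSeq promoter table on GRCm38.p6) is shown because most Txnrd1 reads were assigned to that start and Txnrd1 is a textbook target of NRF2, the factor that switches on genes against oxidants. The core of its antioxidant response element, TGACNNNGC, was searched on both strands, and the match, on the reverse strand, is in capitals.
Txnrd1 upstream promoter: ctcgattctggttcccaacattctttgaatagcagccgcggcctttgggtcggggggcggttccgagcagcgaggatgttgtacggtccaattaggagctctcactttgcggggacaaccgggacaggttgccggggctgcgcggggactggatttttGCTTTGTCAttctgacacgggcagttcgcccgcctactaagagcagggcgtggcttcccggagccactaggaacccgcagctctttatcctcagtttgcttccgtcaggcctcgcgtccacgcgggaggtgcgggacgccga

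The same letters were found in 2 of the 17 RefSeq windows of the 10 genes, the other in Selenok, which is 11.8% of the windows, and in 4071 of all 32851 windows (12.4%). The window of another RefSeq start of Txnrd1, further upstream at chr10:82833951, held no match. A match is a description of the letters, not a bound site.

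Small departures from the annotated chains were read in these genes, several of them in both libraries. In Selenow, 3 reads in replicate 1 and 4 in replicate 2 skipped exon 3, of 54 bases. A model with the acceptor of exon 5 moved by 2 bases held 8 and 7 reads, and 1 with the donor of exon 2 moved by 9 bases held 2 and 3. Whether these moved sites reflect splicing or the alignment of reads from this cross to mm10 was not tested. In Selenom, 2 and 3 reads skipped exon 3, of 35 bases, so the exon was included in 97.2% and 96.2% of reads that cross it. In Selenop, 4 and 6 reads used a donor of exon 1 that lay 100 bases upstream. In Gpx4, 4 reads in replicate 1 came from a model that retained introns 1 to 3, while the 4 reads in replicate 2 with the same introns came from a model that began downstream of exon 3. In Selenok, 6 reads in replicate 2 and none in replicate 1 used a donor of exon 1 moved by 170 bases.

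Isoform usage was compared by a chi-square test where a gene had 50 or more reads in both libraries, which 7 of the 10 genes had. None of these 7 passed at an adjusted p under 0.05, against 0.796% of all genes tested (25 of 3141). Selenok had an unadjusted p of 0.0175 and an adjusted p of 0.476 in the chi-square test over all genes tested. It was the 1 gene of the 7 with an unadjusted p under 0.05, as were 266 of all genes tested. That test set Selenok-201 against its other models merged, so the moved donor read in replicate 2 only was not tested by itself.

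No exon that holds a selenocysteine codon was skipped where it could be scored as an internal exon. In Selenow, 715 reads in replicate 1 and 1246 in replicate 2 crossed both junctions of exon 2, of 25 bases, and none joined its neighbours directly. Gpx4 exon 3 was included by 160 and 224 reads, Selenok exon 4 by 172 and 237, Selenop exon 2 by 356 and 426, Selenof exon 3 by 73 and 111, and Selenom exon 2 by 68 and 74, again with no read that skipped it. For Selenot exon 2 and Msrb1 exon 3, with 5 and 6 and with 5 and 9 reads, the lower limit of the 95% Wilson interval was no higher than 70.1%, so skipping at a modest rate was not detectable at this depth.

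Counting all models, the first selenocysteine codon lay within the model of 97.3% of the Selenow reads in replicate 1 and 96.9% in replicate 2, and of 96.7% and 95.9% of the Selenop reads. For Selenom, Selenok, Selenof and Gpx4 the share was 100% in replicate 1 and 97.6%, 98.8%, 99.1% and 98.3% in replicate 2. It was 100% and 95% for Gpx1, 94.9% and 100% for Txnrd1, 5 of 6 and 9 of 10 reads for Msrb1, and 25% and 28.6% for Selenot. Selenow reads without the codon were 20 ISM reads in replicate 1 and 36 ISM and 4 NNC reads in replicate 2. The last 9 codons of Selenop, all in the last exon, lay within the models of all 394 and 468 reads. Model ends need not be the ends of single reads, so these shares do not measure how many reads covered the codon. The 4 Gpx4 reads without the codon in replicate 2 had the same introns as 4 reads in replicate 1 whose model began further upstream.

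**Figure D5:**
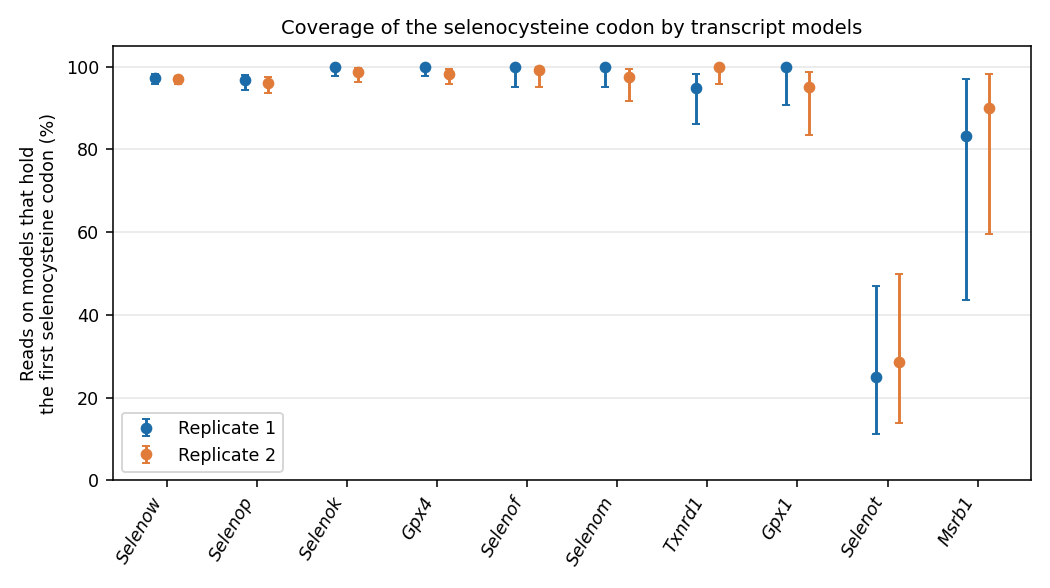
Points give, for each gene and library, the percent of reads whose transcript model holds the first selenocysteine codon, with 95% Wilson intervals as bars. Model ends need not be the ends of single reads. Of the 10 genes, 8 lie above 94% in both libraries, Msrb1 rests on 6 and 10 reads, and Selenot lies at 25% and 28.6%.

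The genes listed for selenocysteine synthesis and insertion, some of which have other roles as well, were all read, 15 of 15 in both libraries. None of the 15 passed the Fisher's exact test between the libraries, and their median log2 ratio was 0.17. Secisbp2 had 19 and 15 reads, Eefsec, the elongation factor, 46 and 45, and Sepsecs, the lowest of the list, 5 and 5. The highest were Sars, the seryl-tRNA synthetase that charges the selenocysteine tRNA with serine (236 ± 51.0 CPM), Sephs2, and Ncl, nucleolin, which binds SECIS elements (156 ± 32.7 CPM, SD, n = 2 throughout). Of the receptors that take up selenoprotein P, Lrp8 had 59 and 60 reads (70.5 ± 7.92 CPM) and Lrp1 45 and 67 (65.3 ± 10.2 CPM), while Lrp2 had none. Selenop mRNA exceeded the mRNA of Lrp8 in both libraries.

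The 12 genes listed as cysteine-containing relatives, which take in peroxiredoxins beside Gpx and Msr genes, had a median level of 26.4 CPM. The highest were peroxiredoxins. Of the Gpx and Msr genes on the list, Msra was the highest by mean level at 31.9 CPM and Msrb2 came next at 20.9 CPM. Prdx2 had 313 and 474 reads and was the 1 of 10 tested relatives that passed, with a log2 ratio of -0.34 and an adjusted p of 0.0471 by Fisher's exact test. Prdx6 had 448 ± 3.52 CPM and Prdx1 283 ± 8.12 CPM. Among the 11 thioredoxin and glutathione partners none passed the test, and the highest were Txn2 (189 ± 24.02 CPM), the mitochondrial thioredoxin, Glrx3 (155 ± 0.0738 CPM) and Glrx5 (145 ± 9.49 CPM). Of 6 NRF2 targets named beside Txnrd1, 3 had enough reads to test and none passed. Gclc (104 ± 22.1 CPM), Srxn1 (75.1 ± 13.1 CPM) and Gclm (57.2 ± 12.1 CPM) were the highest, and Hmox1 had no read. None of the 6 partners in quality control of the endoplasmic reticulum passed, with Vcp at 404 ± 64.3 CPM, Canx at 224 ± 31.95 CPM and Derl1 at 103 ± 7.78 CPM.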

How the data were processed

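Long-read RNA-seq of 2 libraries was analysed from the whole-number counts per transcript model that the authors deposited, with no normalization. Per the file headers, models were built for each library on mm10 with the GENCODE M21 annotation, and TALON is named as the source of features that are not annotated. For the aligner, the software versions and any use of strand in counting, the sources used here give nothing. Gene counts are sums over the models assigned to a gene, and CPM divides them by all mouse reads, with spike-in reads left out. Unannotated spliced models of both libraries were taken as the same where strand and all introns were, and unannotated single-exon models were pooled per gene. Shares have 95% Wilson intervals, and log2 ratios have 95% intervals from counts plus 0.5 reads. Isoforms under 10 reads were merged in the chi-square test. Alternatives used the scaling of edgeR 4.0.16 (TMM) and DESeq2 1.42.0, and tests ran in scipy 1.17.1. Codon sequences come from GENCODE M21 transcripts and promoters from RefSeq (GRCm38.p6). All 10 genes, the 14 other selenoprotein genes, the 3 highest of each list and every listed gene past the test are named, with some other listed genes. Members and lists were chosen with earlier results of these data known.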

Additional observations from a re-analysis of the deposited data

Results flagged for a closer look

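Reads outside the counts of the selenoprotein genes were listed on the opposite strand over their exons, above the 3 reads that a count of 0 allows. For Selenot there were 10 such reads in replicate 1, of which 2 were spliced, and 8 in replicate 2, of which 3 were spliced. For Selenop there were 14 in replicate 1, all from a single-exon model (chr15:3271646-3277157), and 1 in replicate 2. None of these models matched an annotated gene, and their origin was not tested.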

How the results depend on the processing

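No paired analysis was possible because the series holds 1 group. With 2 libraries, 1 of the 10 selenoprotein genes, Selenow, passed the level test under every alternative run: TMM or DESeq2 scaling, no minimum or 50 reads, Known models only, models with 1 read left out, and all reads on the strand of the gene, the last chosen after seeing the data. The read minimums and the last alternative left the reads of Selenow unchanged, so they could not move its ratio. The log2 ratio of Selenow ranged from -0.59 to -0.54 over 5 alternatives, with adjusted p from 5.18e-16 to 8.60e-14 by exact tests. No isoform test called any of the genes under another minimum, another test or fewer model classes. Of 50 log2 ratios of members under alternatives, 4 changed sign, none of them called: Selenot fell to -0.31 with Known models only, and Selenop to -0.0021 with TMM, -0.026 with DESeq2 scaling and -0.011 with Known models only. The 119 untested values take in those with 1 library left out, which with 2 libraries cannot move by more than 1 SD. Under the other alternatives 20 moved by more than 1 SD, such as the mean level of Selenot, which was 5.83 CPM with Known models only. That placed Selenot below Msrb1, at 8.09 CPM with Known models only. Msrb1, Selenot and Gpx1 had at most 40 reads per library, which limits statements on their isoforms.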
